A study of Gallus gallus with 8 samples.

Results

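The regions described here are the 2827 stretches of the chicken genome in which accessible chromatin was listed in all 4 cell types of the study. They were chosen by the presence of peaks: the peak lists of fibroblasts, HD3 erythroblasts, embryonic red blood cells and adult red blood cells were merged wherever intervals overlapped by at least 1 bp, chromosomes 1 to 15, 17 to 26 and 28 were kept, and a merged region was taken if it held at least 1 peak of each list. They made up 10.8% (95% Wilson interval 10.5% to 11.2%) of the 26096 merged regions on these 26 chromosomes. Another 2756 regions held peaks of exactly 3 lists, 4379 of 2 and 16134 of 1. The 8 chromosomes left out held a further 342 regions of all 4 lists.

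The assay was ATAC-seq: the transposase Tn5 inserts sequencing adapters into DNA that is not packed away in chromatin. The 4 groups, all labelled wild type, were cultured primary fibroblasts, the cultured erythroblast line HD3, red blood cells taken at embryonic day 10, and red blood cells (erythrocytes) of hens between 28 and 38 weeks of age, with 2 samples per group. Each group is represented by 1 peak list, and how its 2 samples entered the list is not given in the sources used here. Peak names start with Fb1CLEANED in fibroblasts, HD32 in HD3 erythroblasts, eRBC2CLEANED in embryonic and aRBC2CLEANED in adult red blood cells. Only the HD3 names lack the word CLEANED. What it stands for, and whether all lists were filtered alike, is not given in the sources used here.

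HD3 cells are chicken erythroid precursors transformed by avian erythroblastosis virus, so this group is a single line and not a primary precursor. Chicken red blood cells keep their nucleus to the end of differentiation while its chromatin is compacted and most genes fall silent. Sites that stay accessible in unrelated cell types are, in well-annotated genomes, often promoters of genes that most cells use or sites bound by architectural proteins such as CTCF. Positions below are those of the merged regions in build GRCg6a, as named in the submitters' processing notes, counted from 1. No genome or gene annotation of that build was used here, so the regions are given without genes or sequence, and the labelled cell types were not checked against marker genes.

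The regions of all 4 lists took up a different share of each list. They contained 2941 of 14057 fibroblast peaks on these chromosomes (20.9%, 95% Wilson interval 20.3% to 21.6%). In HD3 erythroblasts they contained 2975 of 10942 peaks (27.2%, 26.4% to 28.0%), in embryonic erythrocytes 2930 of 11060 (26.5%, 25.7% to 27.3%) and in adult erythrocytes 2914 of 9192 (31.7%, 30.8% to 32.7%). As deposited, the fibroblast list, the longest, had the lowest share, and the adult list, the shortest, had the highest. By the rule each region holds at least 1 peak of every list, so the counts were close and the shares largely follow list length. The order of the shares did not hold under other ways of limiting the lists. For one alternative all lists were cut to the length of the shortest over all chromosomes (11395 peaks). The shares were then 25.5% for fibroblasts, 25.2% for adult, 23.2% for embryonic and 22.4% for HD3 cells. The cut came before the chromosomes were chosen, so list lengths on these chromosomes still differed. When peaks below a −log10 q of 10 were dropped, the fibroblast share was the highest as well. The fibroblast list was then the shortest (4635 peaks) and the embryonic list the longest (8298 peaks). Inside the 1192 regions then common to all 4 lists were 26% of fibroblast, 19.1% of HD3, 18.3% of adult and 14.7% of embryonic peaks. Read depth is unknown, there is no replicate of any list, and the intervals given reflect only the counting of peaks or regions, which are not independent of each other.

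Most shared regions were simple in structure. In 2525 of them (89.3%) each list had exactly 1 peak, and in 302 at least 1 list had several. HD3 erythroblasts had more than 1 peak in 145 regions, fibroblasts in 109, embryonic erythrocytes in 89 and adult erythrocytes in 85. The merged regions were 123 to 2993 bp wide with a median of 393 bp, against 303 bp for regions of 3 lists, 224 bp for 2 and 140 bp for 1. A merged region grows with each peak joined to it, so these widths follow in part from the way regions were made. The stretch covered by all 4 lists at once had a median of 148 bp (quartiles 105 and 215 bp) and was at least 100 bp long in 2208 regions (78.1%). In 60 regions (2.12%) no base was common to all 4 lists and the peaks were linked only as a chain.

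How closely the 4 cell types placed the point of highest accessibility was read from the peak summits. The summit column did not enter the choice of regions, but each summit lies inside a peak that was joined to the others by overlap. Closeness of the summits is therefore partly set by the choice, and how far was not tested. The 4 summits of a region lay within a median of 71.0 bp (quartiles 43.0 and 119 bp). They fell within 50 bp in 891 regions and were over 100 bp apart in 890, each 31.5%. In 4 regions all summits were on the same base, and in 36 they were over 500 bp apart. Where a list had several peaks in a region, the one of highest fold enrichment was used. The fold enrichment is the authors' value for each peak, the ratio of the read pileup at the summit to the peak caller's background.

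Summits of the erythrocyte lists lay closest to each other. Embryonic and adult summits had a median distance of 25 bp (95% interval of the median 24 to 27) and were within 50 bp in 74.7% of regions. HD3 and embryonic summits were 31.0 bp apart, and HD3 and adult summits 34.0 bp. Fibroblast summits lay 34.0 bp from adult, 37.0 bp from embryonic and 40.0 bp from HD3 summits, with 58.8% of the last pair within 50 bp. The fibroblast summit was the one farthest from the others in 951 regions, the HD3 summit in 794, the adult in 532 and the embryonic in 486. In regions that held peaks of embryonic and adult erythrocytes and of no other list, the median distance was 26 bp, close to that in the regions of all 4 lists, and in those of HD3 and embryonic cells only it was 32.0 bp. Regions of fibroblasts and adult erythrocytes only had a median distance of 17 bp over 728 regions (95% interval of the median 13 to 18), against 34.0 bp (32.0 to 36.0) in regions of all 4 lists. This set was unusual in fold enrichment too. Its rank correlation (Spearman rho) between the lists was 0.755, against 0.149 to 0.398 in regions of any other pair only. Peaks in regions of exactly 2 lists, taken over all pairs, had median widths of 140 bp (fibroblasts) and 176 bp (adult). In regions of all 4 lists these were 194 and 284 bp. Widths in regions of fibroblasts and adult erythrocytes only were not computed separately. What sets these regions apart was not tested.

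Peaks of the same region differed in width between the cell types. In the middle of the distribution, fibroblast peaks were 197 bp wide (median), HD3 peaks 229 bp, adult peaks 287 bp and embryonic peaks 349 bp. The whole lists had the same order, with medians of 144, 171, 207 and 233 bp, so it is not particular to the shared regions. The embryonic peak was the widest of the 4 in 1811 of the 2827 regions and wider than the fibroblast peak in 2537. Within single regions the full order of the medians held in only 739. The HD3 peak was wider than the fibroblast peak in 1786. The fibroblast peak was the narrowest in 1548 regions, the HD3 peak in 885, the adult peak in 300 and the embryonic peak in 68. Peak width depends on read depth as well as on the extent of open chromatin, and these cannot be told apart from a list.

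**Figure D1:**
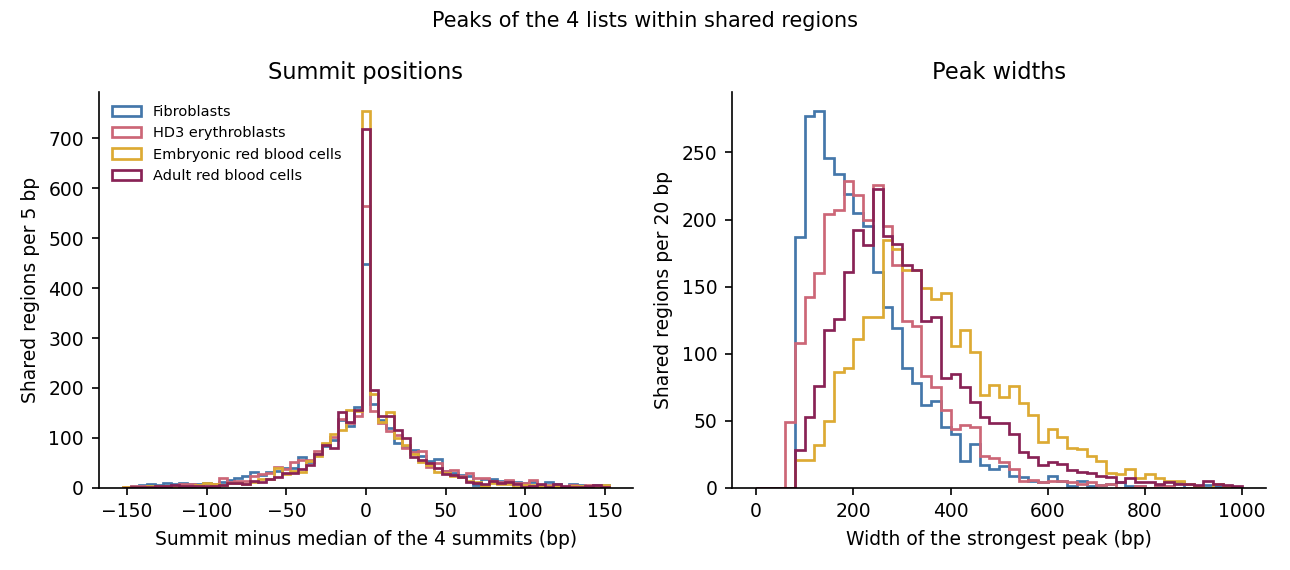
Left, position of each list's summit relative to the median of the 4 summits of a region, in bp, as the number of regions per 5 bp; right, width of each list's strongest peak in the region, in bp, as the number of regions per 20 bp. Coloured lines are the 4 cell types over the same 2827 regions; the median of the 4 summits includes the summit plotted, so the peak at 0 is set by the construction, while widths move from fibroblasts (median 197 bp) to embryonic erythrocytes (median 349 bp). Outside the axes lie 60 to 139 summits and 2 to 23 widths per list.

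Shared regions were on average stronger than the rest of each list, by an amount that differed between lists. This describes the same peaks that defined the regions and is no test. In fibroblasts the median fold enrichment was 5.55 in regions of all 4 lists (95% interval of the median 5.47 to 5.62), 4.95 in regions of 3, 4.92 in regions of 2 and 4.64 in regions of fibroblasts alone. In HD3 erythroblasts the values were 9.92 (9.73 to 10.2), 7.97, 7.91 and 7.98, so that only the regions of all 4 lists stood above the others. In embryonic erythrocytes they fell at each step, from 11.9 (11.7 to 12.1) to 8.30, 6.59 and 5.39. Adult erythrocytes showed the same order, with 12.2 (11.9 to 12.5), 7.59, 5.77 and 4.72. Relative to the median of the whole list, the ratio for the shared regions was 1.14 for fibroblasts, 1.17 for HD3 cells, 1.54 for embryonic and 1.75 for adult erythrocytes. In a bulk assay, weaker accessibility in every cell and accessibility in fewer cells cannot be told apart.

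**Figure D2:**
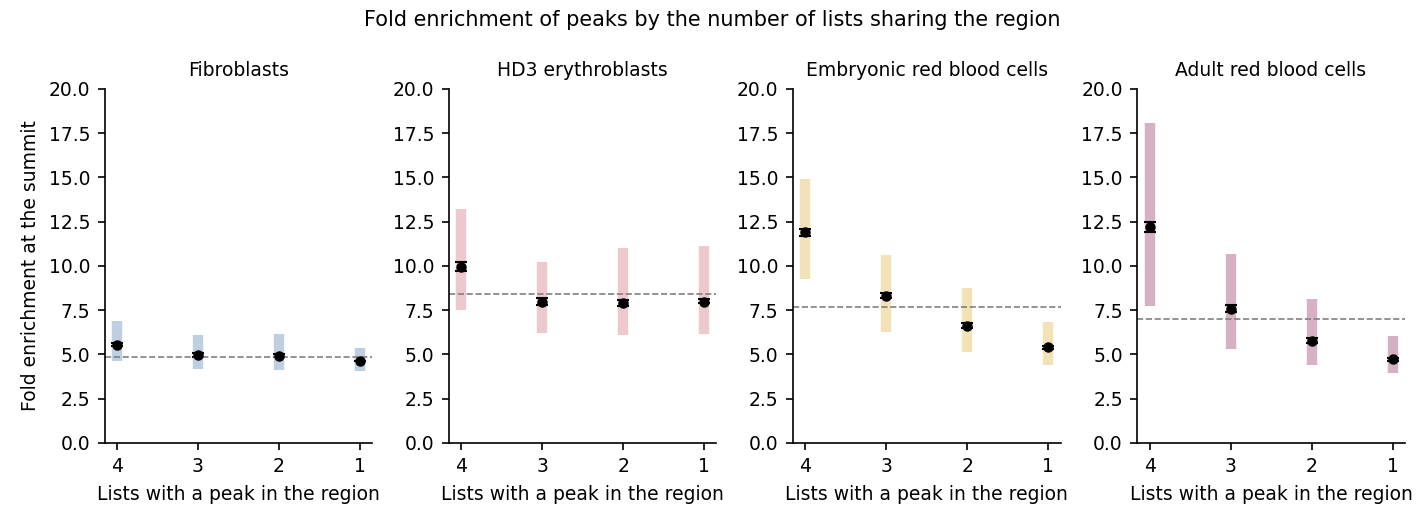
Fold enrichment at the summit (vertical axis, authors' values) of peaks in regions shared by 4, 3, 2 or 1 lists (horizontal axis), 1 panel per cell type. Points are medians with 95% intervals, coloured bars span the quartiles and dashed lines mark the median of the list; in both erythrocyte panels the medians step down from 4 lists to 1, while the HD3 panel is nearly level from 3 lists to 1 (7.97, 7.91 and 7.98).

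Most of the strongest 10% of erythrocyte peaks lay in regions of all 4 lists. Of the strongest 10% of adult peaks, 84.0% (81.5% to 86.2%) lay in regions of all 4 lists, against 7.07% of the weakest 10%. The embryonic list ran from 3.62% to 76.8% (74.2% to 79.2%). In fibroblasts the share rose from 10.9% to 45.3% (42.7% to 47.9%). In HD3 erythroblasts it rose from 15.1% of the weakest 10% to 41.9% (39.0% to 44.8%) of the 10% next to the strongest and was 39.1% (36.2% to 42.0%) of the strongest, with overlapping intervals. Among the 100 strongest peaks on these chromosomes, 86 of the embryonic and 86 of the adult list were in shared regions, against 42 in HD3 erythroblasts and 30 in fibroblasts. Of the 10 strongest peaks, 4 of the adult list were in shared regions (40.0%, 16.8% to 68.7%) and 9 of the embryonic list (59.6% to 98.2%). Fibroblasts had 5 (23.7% to 76.3%) and HD3 erythroblasts 6 (31.3% to 83.2%). With 10 peaks per list these intervals are wide and overlap.

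**Figure D3:**
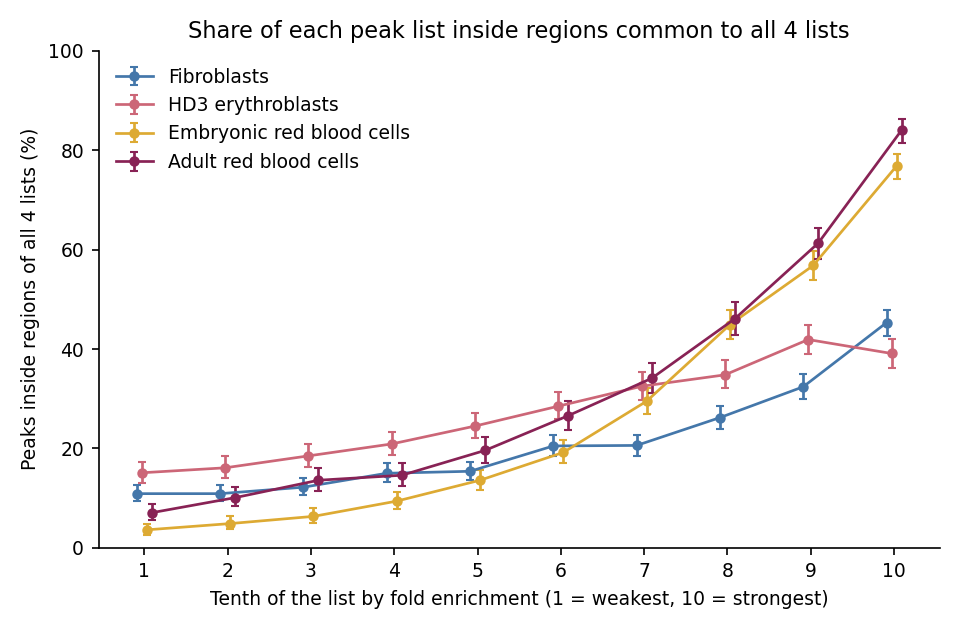
Percentage of peaks that lie in regions of all 4 lists (vertical axis) for 10 equal bins of a list by fold enrichment (horizontal axis, 10 is the strongest), with 95% Wilson intervals. The adult and embryonic lines climb to 84.0% and 76.8% and cross the HD3 and fibroblast lines, which reach 39.1% and 45.3% in the strongest bin.

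By the caller's significance, a −log10 q of at least 10 was reached in fibroblasts by 1525 of the 2827 regions (53.9%), beside 33.0% of all fibroblast peaks. A region counted if any of its peaks of that list reached the limit. The share of peaks is of single peaks over the whole list, those in shared regions included, so the units differ. In HD3 erythroblasts it was reached by 76.1% of the regions, beside 58.6% of all peaks. Embryonic erythrocytes reached it in 97.6% of the regions, beside 75.0% of peaks, and adult erythrocytes in 91.5%, beside 72.3% of peaks. All 4 lists reached it in 1192 regions (42.2%), 3 lists in 1073, 2 in 483, 1 in 72 and none in 7.

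Membership was decided most often by the fibroblast list. Of the 4274 regions with a peak in all 3 erythroid lists, 66.1% (64.7% to 67.5%) also had a fibroblast peak, and 1447 lacked one. Of regions with the other 3 lists, 79.8% (78.5% to 81.1%) had an adult peak and 714 lacked it, and 83.7% (82.4% to 84.9%) had an HD3 peak and 552 lacked it. An embryonic peak was present in 98.5% (98.0% to 98.9%), with 43 regions without it. Regions lacking 1 list were weaker in the others: those without a fibroblast peak had median fold enrichments of 7.42 (HD3), 8.95 (embryonic) and 7.99 (adult), against 10.2, 12 and 12.5 for the strongest peak in regions of all 4 lists. Those without an adult peak had 5.30 (fibroblasts), 9.40 (HD3) and 7.41 (embryonic), against 5.61, 10.2 and 12. Among peaks that reached a −log10 q of 10, the share with a fibroblast peak was 46.7%.

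At the edge of membership some regions were strong in other lists. Only the strongest peak of each list in a region was compared here. The lowest −log10 q of any peak on these chromosomes was 2.02 in fibroblasts, 2.01 in HD3, 2.04 in embryonic and 2.20 in adult cells. The regions just inside membership thus rested on peaks near the lower end of a list. The least significant was an HD3 peak on chromosome 5, in the region from 29180118 to 29180779, with a −log10 q of 2.06. Its fold enrichment was 3.81, while the adult peak there had 16.5. The next was on chromosome 1 from 77526190 to 77526609, where the HD3 peak had a −log10 q of 2.18 and the embryonic peak a fold enrichment of 17.3. In the third, on chromosome 3 from 96209698 to 96209921, the adult peak was the weak one with a −log10 q of 2.20. On chromosome 7, the region from 15769657 to 15769927 rested on an HD3 peak with a −log10 q of 2.22 and an adult peak with 2.46. Only 14 bp there were common to all 4 lists. The region from 36683038 to 36683320 on the same chromosome rested on an HD3 peak with a −log10 q of 2.29. Just outside, the region on chromosome 8 from 1825858 to 1826484 missed the fibroblast list by 6 bp, although its fold enrichments were 9.82, 12.5 and 12.2 in HD3, embryonic and adult cells. The next 4, on chromosomes 3, 24, 3 and 25, missed a fibroblast peak by 17, 23, 31 and 40 bp. Of the regions without a fibroblast peak, 171 (11.8%) had one less than 1 kb away. Such near misses were not particular to fibroblasts. For regions missing only another list the share was 16.8% (HD3), 16.3% (embryonic, 7 of 43 regions) and 5.74% (adult).

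Within the shared regions, strength was only partly ordered alike in the 4 cell types. Each region was ranked in each list by its strongest peak, over the same 2827 regions. The rank correlation was highest between embryonic and adult erythrocytes (Spearman rho 0.564), followed by HD3 and embryonic cells (0.475) and by fibroblasts and HD3 cells (0.412). Fibroblasts and embryonic cells had 0.377, HD3 and adult cells 0.347, and fibroblasts and adult cells 0.340. The order of the lower pairs was not stable: with only peaks of −log10 q 10 or more, fibroblasts and embryonic cells had 0.330 against 0.324 for fibroblasts and HD3 cells, and fibroblasts and adult cells had 0.293 against 0.283 for HD3 and adult cells. These are descriptions across regions, which share libraries and sequence context and are not independent. Of the 706 strongest regions of each list, 404 were common to embryonic and adult cells and 326 to HD3 and adult cells. In all 4 lists 154 regions were above the upper quartile and 78 below the lower one. Of the 236 regions above the upper quartile of all 3 erythroid lists, 10 were below the lower quartile of fibroblasts. The opposite pattern, below in all 3 erythroid lists and above in fibroblasts, occurred in 15. These were 0.354% and 0.531% of the shared regions. How many regions unrelated rankings would place in any of these groups was not worked out.

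**Figure D4:**
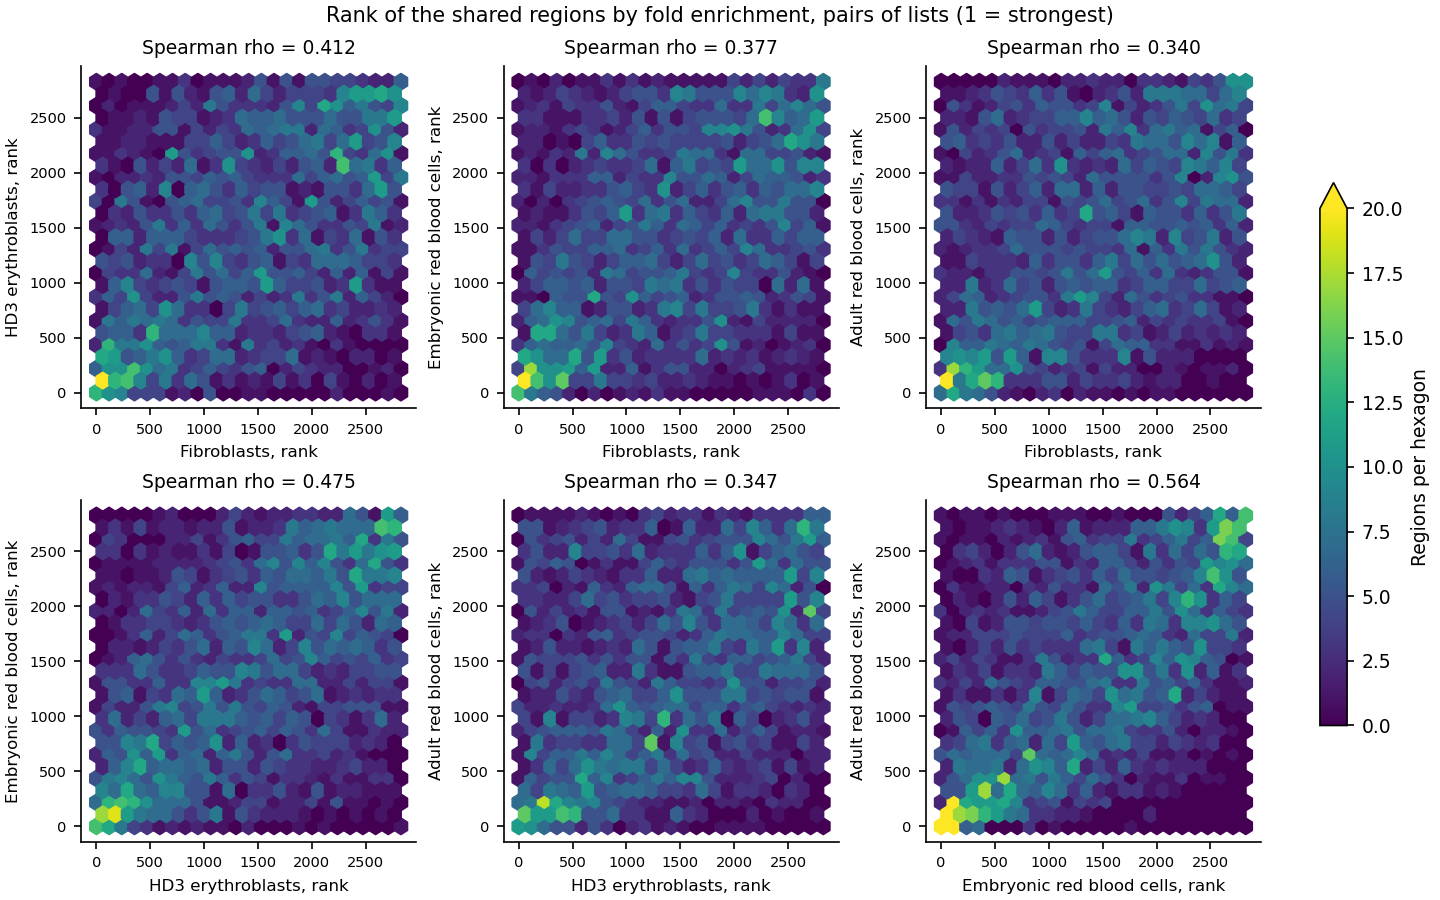
Rank by fold enrichment (1 is the strongest) of the 2827 shared regions in each pair of lists, with colour giving the number of regions per hexagon and Spearman's rho above each panel; the colour scale is capped at 20. Regions gather at the strong corner in every panel, and the diagonal is clearest for embryonic against adult erythrocytes (0.564).

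The region whose lowest rank over the 4 lists was best lay on chromosome 2 from 86463194 to 86463340. Its fold enrichments were 25.7 (fibroblasts), 44.7 (HD3), 47.4 (embryonic) and 64.6 (adult), and its ranks among the shared regions were 8, 2, 2 and 2. Chromosome 2 from 65121368 to 65121556 was second, with fold enrichments of 41.8, 39.3, 25.6 and 66.5 in the same order. Chromosome 24 from 6053164 to 6053328 followed with 24.8, 25.1, 26.4 and 33.8. On chromosome 1 from 175202300 to 175202488 the values were 34.5, 45.0, 48.9 and 28.6, which was rank 3 in fibroblasts, rank 1 in HD3 and embryonic cells and rank 83 in adult cells. Chromosome 23 from 6049599 to 6049742 had 9.98, 19.1, 28.5 and 28.5.

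These 5 were short, between 144 and 189 bp, and their 4 summits lay within 1 to 10 bp of each other. Their form was unusual for the shared regions: a width of up to 200 bp occurred in 94 regions (3.33%), summits within 10 bp in 126 (4.46%), and both in 16, of which 5 were among the 10 strongest by worst rank and none of the rest among the 25 strongest. A narrow width by itself did not go with strength: regions of up to 200 bp had median fold enrichments of 8.45 in embryonic and 7.56 in adult erythrocytes. Over all shared regions these medians were 12 and 12.5. Regions with summits within 10 bp went the other way, with 13.2 in embryonic and 14.5 in adult erythrocytes. The median worst rank of the 16 with both features was 2093, against 2240 over all shared regions. These limits were set after the values were seen. The other 5 of the 10 strongest had the more usual width. They lay on chromosome 1 from 16325016 to 16325336, from 53707395 to 53707839, from 144332689 to 144333150 and from 182456858 to 182457309, and on chromosome 7 from 25324724 to 25325159. Their widths were 321 to 462 bp and their summits 27 to 106 bp apart, with fold enrichments of 9.71 to 11.9 in fibroblasts and 28.3 to 34.8 in adult erythrocytes.

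The 3 widest shared regions did not have high fold enrichments. Chromosome 14 from 14634620 to 14637612, 2993 bp wide, joined 2 fibroblast, 1 HD3, 3 embryonic and 3 adult peaks, and its fold enrichments were 2.60, 8.34, 3.41 and 3.15. Chromosome 3 from 2474081 to 2476402 was covered by 1 wide peak of each list with 1657 bp in common, fold enrichments of 5.68 to 8.30, and the largest distance between summits, 1562 bp. By significance that region was strong, with a −log10 q of 234 in fibroblasts, 79.6 in HD3, 180 in embryonic and 214 in adult cells. On chromosome 23 from 92811 to 95071 the summits were 1424 bp apart, and on chromosome 6 from 9941796 to 9943989 they were 1213 bp apart with fold enrichments of 3.09 to 4.61. The 45 regions over 1000 bp had a median fold enrichment of 5.12 in fibroblasts and 8.12 in adult erythrocytes, against 5.61 and 12.5 over all shared regions. Of these 45, 15 (33.3%) lay in dense windows, meaning windows of 100 kb with at least 10 peaks of a list, against 7.46% of all shared regions. The part of dense windows in these values was not tested.

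By fold enrichment some shared regions stood out in 1 cell type. In fibroblasts the most one-sided lay on chromosome 8 from 11356720 to 11357094, ranked 133 in fibroblasts (fold enrichment 9.70) and 2272 to 2551 in the other lists, in a dense window. By significance it did not stand out: its −log10 q was 52.8 in fibroblasts and 50.9 in adult cells, beside 5.86 in HD3 and 14.1 in embryonic cells. In HD3 erythroblasts the most one-sided region was chromosome 4 from 8732135 to 8732570, with a fold enrichment of 19.6 and rank 124 against ranks of 2292 to 2542. Chromosome 3 from 100534368 to 100534751 reached rank 39 in HD3 cells with 23.7, beside 4.91 (fibroblasts), 5.75 (embryonic) and 4.24 (adult). Only 12 bp of that region were common to all 4 lists, and its summits were 114 bp apart. The embryonic list had chromosome 19 from 191579 to 192339 at rank 5 with 34.6, beside 3.59, 8.52 and 4.99 in fibroblasts, HD3 and adult cells. Its −log10 q, however, was 116 in embryonic and 106 in adult cells, beside 25.9 in fibroblasts and 10.7 in HD3 cells. That region lay in a dense window with 26 other merged regions within 25 kb. Outside dense windows, chromosome 8 from 16739221 to 16739521 had rank 149 in embryonic cells (19.2) and 1806 to 2364 elsewhere.

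In adult erythrocytes the gap to the other lists was smaller. The most one-sided region, chromosome 14 from 4924456 to 4924701, had a fold enrichment of 19.3 and rank 597, with ranks of 2192 to 2609 in the other lists. Chromosome 28 from 769953 to 770243 had 17.8 at rank 754, and chromosome 3 from 16112199 to 16112944 had 17.3 at rank 799. A rank above the upper quartile in 1 list and below the lower quartile in the other 3 occurred in 15 regions for fibroblasts, 5 for HD3 erythroblasts, 1 for adult and 0 for embryonic erythrocytes. The differences in rank have no replicate behind them.

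Along the genome the density of shared regions largely, but not wholly, followed that of merged regions in general. Chicken chromosomes fall into a few large ones and many small, gene-dense microchromosomes. Density ran from 2.14 shared regions per Mb on chromosome 2 (95% Poisson interval 1.92 to 2.39) to 9.01 on chromosome 28 (6.59 to 12), with 8.34 on chromosome 23 and 7.31 on chromosome 25. It was lower on longer chromosomes (Spearman rho −0.793 over 26 chromosomes, a description). The share of merged regions that had all 4 lists varied less, from 8.66% on chromosome 25 to 16.1% on chromosome 23, with a rho of −0.0708 with length. Chromosomes 11 to 28 had 1.82 times (exact binomial interval 1.67 to 1.99) the density of chromosomes 1 to 5. The same ratio was 2.29 (2.11 to 2.49) for regions of exactly 3 lists, 2.08 (1.95 to 2.23) for 2 and 1.41 (1.36 to 1.47) for 1, so the shared regions had neither the strongest nor the weakest preference.

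**Figure D5:**
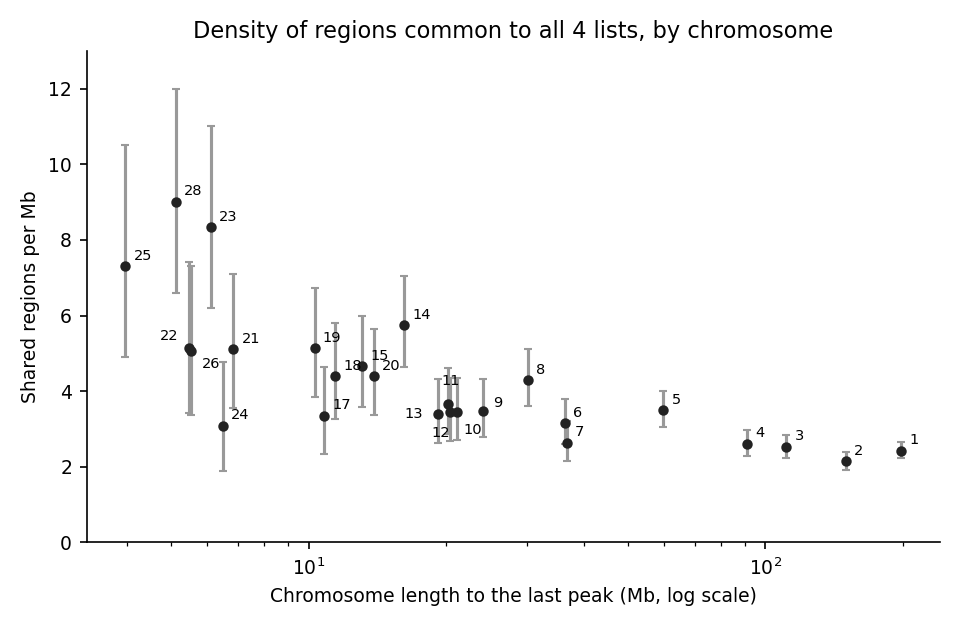
Shared regions per Mb (vertical axis) against chromosome length to the last peak in any list in Mb (horizontal axis, log scale), with 95% Poisson intervals and the chromosome number beside each point. Density rises from 2.14 per Mb on chromosome 2 to 9.01 on chromosome 28, and chromosome 24 lies low for its length with 3.09.

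The median strength of shared regions was somewhat lower on the small chromosomes in fibroblasts, HD3 and embryonic cells, and nearly equal in adult cells. The intervals reflect only the counting of regions in 1 list per cell type, without a replicate, and test no difference. From chromosomes 1 to 5 to chromosomes 11 to 28 the median fold enrichment went from 5.80 (95% interval of the median 5.68 to 5.87) to 5.45 (5.34 to 5.57) in fibroblasts. It went from 10.6 (10.4 to 10.9) to 9.57 (9.26 to 9.97) in HD3 erythroblasts and from 12.5 (12.3 to 12.8) to 11.3 (11 to 11.6) in embryonic erythrocytes. In adult erythrocytes it was 12.4 (12 to 13) and 12.5 (11.9 to 13). For peaks outside the shared regions the medians went from 4.72 to 4.60 in fibroblasts and from 8.34 to 7.25 in HD3 cells. The lower value in HD3 cells was thus not particular to the shared regions. Outside the shared regions they went from 6.71 to 6.56 in embryonic and from 5.61 to 5.77 in adult cells. The stretch common to all 4 lists had a median of 154 bp on chromosomes 1 to 5 and 144 bp on chromosomes 11 to 28.

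Most shared regions had no other shared region close by, but most had other merged regions near them. The median distance from one to the next was 123 kb, and 2358 had no other shared region within 10 kb. The remaining 469 (16.6%) formed 195 pairs and 24 groups of 3 or more. The largest group had 6 regions in 25.6 kb on chromosome 23, from 85516 to 111074, a stretch that includes one of the widest regions. Within 25 kb, 31.3% (29.6% to 33.0%) of the shared regions had another one. Regions of 3 lists had a shared region that near in 32.5%, those of 2 lists in 30.3% and those of 1 list in 20.5% (19.9% to 21.1%). No other merged region of any kind lay within 25 kb of 13.8% of the shared regions. This was so for 10.6% of regions of 3 lists, 11.3% of 2 and 19.4% of 1. The longest stretches without a shared region were 7.10 Mb on chromosome 2, from 69168827 to 76273414, and 5.99 Mb on chromosome 1, from 157641598 to 163630357, which still held 51 and 52 merged regions of fewer lists.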

How the data were processed

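The deposited data are 4 peak lists, 1 per cell type, from ATAC-seq of nuclei from 150000 cells with 30 min of Tn5 and 10 PCR cycles, per the labels' protocols. Bowtie2 2.3.5, SAMtools 1.9, MACS2 2.1.2 and build GRCg6a are named in the submitters' processing notes, without settings; whether Tn5 offsets were corrected or samples pooled is not given in the sources used here. The deposited fold enrichment is a ratio over the caller's background. Significance is deposited per peak as −log10 of the p-value and of the q-value. The deposited display score, 10 times the −log10 q, and the positions (start, end and summit offset in bp, other columns of the deposited lists) were not altered.

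Lists were merged with an overlap of at least 1 bp. The counts were checked with bedtools 2.31.1, which gave the same numbers (26096 regions, 2827 in all 4 lists), and the code was tested on simulated data. Shares have 95% Wilson intervals, medians order-statistic intervals, density ratios exact binomial intervals. No test was made, since each cell type has 1 list and the members were chosen by these peaks. The members and lists were chosen with earlier results of these data known. Regions named were the 10 with the best worst rank over the lists, the 5 just inside and just outside membership, the 3 widest, the 3 with the widest summit spread, and up to 3 that were most one-sided in each list. Planned results on gene starts, GC content, motifs and gene lists were not run, because the gene table at hand is of another build. Alternatives were dropping peaks below a −log10 q of 10, and lists cut to equal length over all chromosomes before the chosen ones were kept. Others were a base common to all 4 lists, 50% overlap of the shorter peak and 200 bp around summits. The rest were no dense windows, every chromosome and −log10 p. The scripts ran in Python 3.11.15 with SciPy 1.17.1, NumPy 2.4.6 and pandas 2.3.3, and plots were drawn with matplotlib 3.10.9.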

Additional observations from a re-analysis of the deposited data

How the results depend on the processing

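Of the 186 values recomputed under an alternative, 110 stayed within the interval of the reported value (for counts, within 1.5 times it) and 76 moved further. No rank correlation changed sign, and the other values cannot be negative. Orders turned: the fibroblast share of peaks in shared regions went from the lowest to the highest of the 4 lists. This happened both with lists cut to equal length over all chromosomes and when peaks below a −log10 q of 10 were dropped. Each region holds at least 1 peak of every list, so these shares largely follow list length. Values below are in the order fibroblasts, HD3, embryonic, adult.

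Keeping only peaks with a −log10 q of at least 10 left 1192 shared regions, 8.11% of merged regions. They held 26%, 19.1%, 14.7% and 18.3% of the lists, with median fold enrichments of 6.96, 12.6, 13.9 and 16.3, which were 1.08, 1.15, 1.51 and 1.81 times the list medians. The density ratio was 1.56, the summit spread 66.0 bp, and the share of regions with the other 3 lists that also had the named one was 46.7% for fibroblasts, 76.5% for HD3 and 81.7% for adult cells. Rank correlations were 0.324 (fibroblasts and HD3), 0.330 (fibroblasts and embryonic), 0.293 (fibroblasts and adult), 0.283 (HD3 and adult) and 0.510 (embryonic and adult). With lists cut to equal length over all chromosomes 10.3% of regions were shared. They held 25.5%, 22.4%, 23.2% and 25.2% of the lists, with medians of 6.0, 10.5, 12.4 and 13, or 1.09, 1.23, 1.51 and 1.86 times the list medians, and shares given the other 3 lists of 54.2% for fibroblasts, 85.5% for HD3 and 83.3% for adult cells, and rank correlations of 0.362 for fibroblasts and HD3 and 0.312 for HD3 and adult cells.

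With 200 bp around the summits 10.1% of regions were shared, holding 19.5%, 25%, 24.5% and 29.5% of the lists. Medians were 10.2, 12.1 and 12.6 for HD3, embryonic and adult cells, ratios 1.21, 1.57 and 1.80, the embryonic share given the other 3 lists 97.5%, and the summit spread 67.0 bp. With every chromosome kept 10.1% were shared, holding 18.6% of fibroblast, 28.4% of HD3 and 28.7% of adult peaks, with ratios of 1.17 for fibroblasts and 1.82 for adult cells and an HD3 share given the other 3 lists of 80.6%. Without dense windows the shares of the lists were 21.7% for fibroblasts, 26.3% for HD3 and 35.7% for adult cells, the adult ratio 1.65, the density ratio 1.65 and the HD3 share given the other 3 lists 87.5%. Ratios taken from −log10 p instead of fold enrichment were 1.25, 1.31, 2.21 and 2.46. Requiring a base common to all 4 lists gave shares given the other 3 lists of 81.9% for HD3, 96.4% for embryonic and 78.1% for adult cells. In regions with exactly 1 peak of each list the summit spread was 68.0 bp. The cause of these moves was not tested.

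No paired analysis was possible because only 1 list per cell type was at hand, so there is no second replicate, whatever the digits in the peak names stand for; for the same reason no replicate was left out. Shares given the other 3 lists and rank correlations were added after the data were seen. Alternatives for gene starts, GC content and motifs were not run. Read depth is unknown, so list lengths and peak widths cannot be separated from depth.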
